A study of Mus musculus with 2 samples.

Results

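Fam59b, which RefSeq now lists as Garem2, is a gene on chromosome 5 of the mouse in whose exon 4 lay one of the densest losses of DNA methylation between wt and βerko MEFs. Its locus was taken as the cytosines covered by reduced representation bisulfite sequencing (RRBS) in both cell types between positions 30420000 and 30460000 of chromosome 5 (mm9), because a cluster of hypomethylated positions lies in it. These were 120 of the 826937 cytosines covered in both libraries, and 99 of them lay within Fam59b. The locus was chosen by the percent methylation of its cytosines in both libraries and by the number of hypomethylated positions, so that the differences below describe it and are not tested.

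The data were 1 library of wt and 1 library of βerko mouse embryonic fibroblasts (MEFs). Both are labelled as strain C57BL/6, the first with the genotype wildtype and the second with ESR2 -/-, a homozygous loss of the gene for oestrogen receptor beta (ERβ). Both were grown in the same high-glucose medium with 10 % fetal calf serum, and neither label gives a treatment, an age of the embryos or the number of animals or lines. DNA of 3 batches was pooled before each library was made, so there were no replicates, and every difference is one between 2 libraries. Fibroblast markers and the loss of the receptor were not checked here, since methylation alone shows neither.

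Methylation of cytosine in CpG dinucleotides is copied onto new DNA by DNA methyltransferases. In mammals most CpGs are methylated, whereas CpG islands at the starts of genes are usually free of methylation. CpG islands inside genes, away from the start, are more often methylated in somatic cells, and methylation there does not block transcription in the way it does at a start. Fam59b codes for a relative of GAREM, an adaptor protein that binds GRB2 and takes part in signalling from growth factor receptors to the MAP kinases.

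Fam59b lies on the plus strand at chr5:30431701-30444918 in GENCODE gene models on NCBIM37, with 6 exons in transcript Fam59b-001. Its exon 4, at chr5:30440466-30441527, is 1062 bp long and is coding throughout. The stretch with the lower methylation lay inside this exon. In transcript Fam59b-201 exon 4 ends earlier, 150 bp before the stretch, which is then intronic. The authors' annotation gives the same picture, with every one of the 29 hypomethylated positions in an exon of one transcript of Fam59b and in an intron of another, and none in a promoter.

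The longest run of covered positions at 20 % or more in βerko MEFs within the changed stretch is shown from NCBIM37, 5′ to 3′ on the plus strand, because βerko values were mostly lower on both sides of it. It lies at chr5:30441001-30441053, and its capitals mark the 8 CpGs that were covered.

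Stretch of higher remaining methylation: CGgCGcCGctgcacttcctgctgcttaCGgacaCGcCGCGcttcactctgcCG

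Among the covered positions of the locus, methylation differed between the cell types mostly in a block of 407 bp in exon 4. The block, at chr5:30440917-30441323, was delimited by the rule that every covered position in it was lower in βerko MEFs by at least 20 percentage points. It holds 51 positions in 46 CpGs. In wt MEFs 91.3 % ± 11.97 (SD over positions) of the cytosine was methylated there. In βerko MEFs it was 16.9 % ± 16.8, a mean difference of -74.4 percentage points. In wt MEFs the values ran from 54.55 to 100 % with a median of 96 %, and 41 of the 51 positions were above 80 %. In βerko MEFs they ran from 2.5 to 80 % with a median of 10.4 %, and 37 positions were below 20 %. The ranges of the libraries overlapped. That every position was lower in βerko MEFs is set by the rule that delimits the block. Positions are not replicates, and SDs over positions describe how the block varies within each library.

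**Figure D1:**
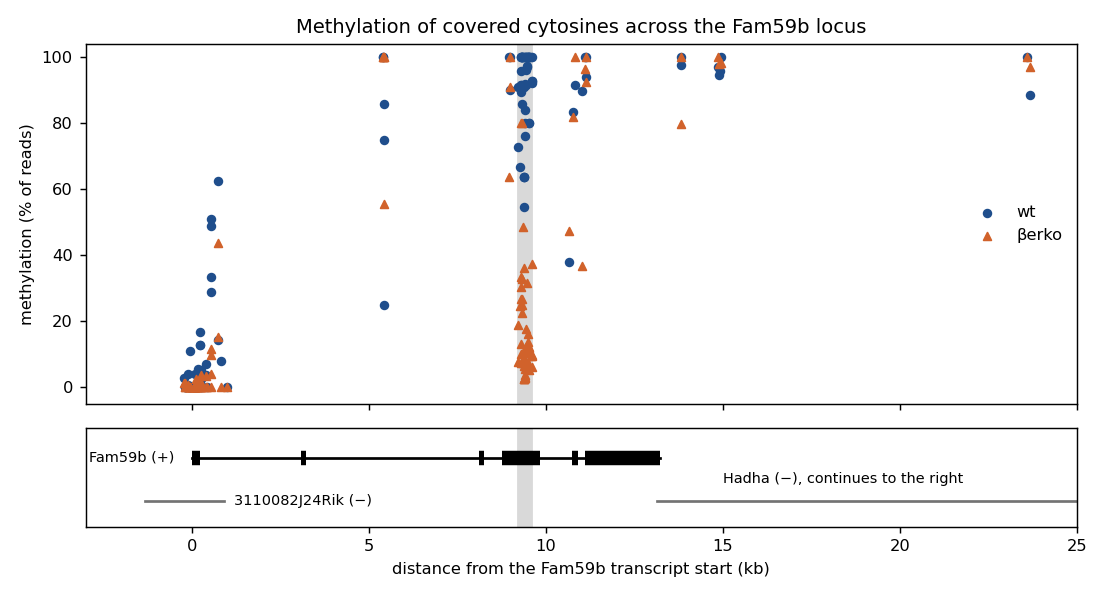
Methylation in percent of reads (y axis) of the 120 covered cytosines against the distance from the start of Fam59b in kb (x axis), with wt MEFs as blue circles and βerko MEFs as orange triangles. Below, exons of Fam59b are thick bars, and the grey band is the 407 bp block, where the βerko values drop while most positions from intron 2 on and outside the block are high in both cell types.

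Differentially methylated positions (DMPs) follow the criterion of the study, more than 4 reads in both libraries with methylation above 80 % in one and below 20 % in the other. Of the 120 positions, 29 were hypomethylated DMPs, which is 24.2 %, against 0.700 % of all covered positions of the series. None was a hypermethylated DMP, against 0.237 % of all covered positions. A difference of at least 50 percentage points towards lower methylation in βerko MEFs was found at 47 of the 120 positions, 46 of them in the block, against 2.92 % of all covered positions. A difference of at least 20 percentage points was found at 58 of the 120, against 10.4 %. Of the 61 positions above 80 % in wt MEFs, 29 were hypomethylated DMPs, or 47.5 %, against 2.15 % of all such positions of the series. Since the locus was chosen for its DMPs, these shares only say how dense the change is. All 29 DMPs lay in the block, from 30440922 to 30441323.

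The other 22 positions of the block were no DMPs. At 8 of them the wt value kept the position from being a DMP, from 54.55 % up to 80 % at position 30441105, where the βerko value was 3.03 %. At 12 the βerko value did, from 22.4 % at position 30441038 up to 80 %, and at 2 both values did. Just inside the criterion were position 30441118, with 84 % in wt, and position 30441133, with 17.8 % in βerko MEFs. Over these 22 positions the wt mean was 84.95 % ± 15.5 and the βerko mean 27.4 % ± 21.2. Their own depth was not given, since reads were given only for DMPs.

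The start of the block was sharper than its end could be shown to be. The last covered positions before it were 30440651, 30440678 and 30440681, also in exon 4, with 100, 90 and 100 % in wt and 63.6, 100 and 90.9 % in βerko MEFs. The block opened 236 bp further on, at position 30440917, with 72.7 % in wt and 19.0 % in βerko MEFs. Between these lie 22 CpGs, 0 of which were covered. At its other end, position 30441323 had 92.9 % in wt and 9.38 % in βerko MEFs. The next covered position, 30442368 in intron 4, was 1045 bp away and had 38.1 and 47.2 %. None of the 38 CpGs in this gap was covered, among them all 22 CpGs in the rest of exon 4, so that the loss ends somewhere between these positions.

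The block was split at its longest run of positions lower by at least 50 percentage points, which makes up its second part. The larger mean difference there follows largely from that rule. From position 30441098 to 30441323, a run of 226 bp, all 27 covered positions were lower by at least 50 percentage points, with 94.5 % ± 7.72 in wt and 10.98 % ± 7.79 in βerko MEFs. The 24 positions before this run had 87.6 % ± 14.8 in wt and 23.5 % ± 21.4 in βerko MEFs. The first part holds the 53 bp printed above as the stretch of higher remaining methylation. Its 10 positions had 97.5 % ± 5.31 in wt and 40.6 % ± 22.0 in βerko MEFs. The stretch was chosen as the longest run at 20 % or more in βerko MEFs. Its higher βerko mean and the lack of values below 20 % therefore follow from that choice. None of the 10 was a DMP, so their depth was not given. The other 14 positions of the first part had 80.5 % ± 15.4 and 11.3 % ± 9.498, with lower wt values than the run and similar βerko values. Without the stretch, the 41 other positions of the block had 89.7 % ± 12.7 in wt and 11.1 % ± 8.30 in βerko MEFs. Positions 30441001 and 30441028 on its plus strand still had 80 % in βerko MEFs, against 100 % in wt.

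**Figure D2:**
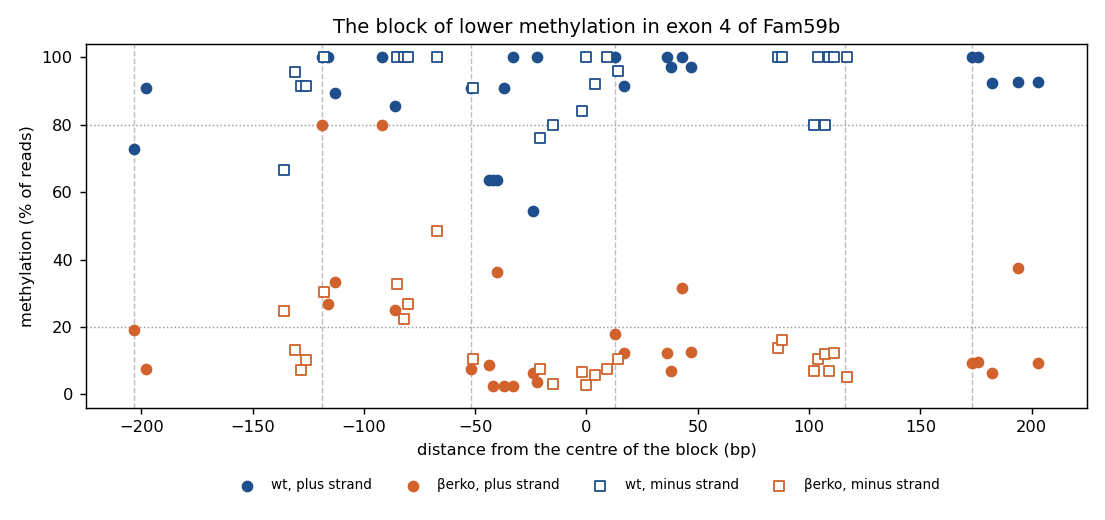
Methylation in percent of reads (y axis) at the 51 positions of the block against the distance from its centre in bp (x axis), with wt MEFs in blue and βerko MEFs in orange, filled circles for the plus and open squares for the minus strand, vertical dashes for MspI sites that bound the covered fragments and dotted lines at 20 and 80 %. All βerko values above 40 % lie in the 71 bp fragment to the left of the centre.

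RRBS reads start where MspI cuts CCGG, so the positions of the block can be assigned to fragments and ends. The block is cut by 6 MspI sites, and its covered positions lay in 5 fragments of 69 to 153 bp. No position was more than 36 bp from the end at which its read starts. By fragment and strand they formed 9 sets, 8 of which held DMPs, and the positions of a set are seen largely by the same reads. The 29 DMPs rest on 538 calls in wt and 2036 calls in βerko MEFs. If the deepest DMP of each set stands for its reads, these calls came from about 148 and 564 reads. Those are the fewest reads that these depths allow. Of the calls, 514 were methylated in wt and 175 in βerko MEFs, which is 95.5 and 8.60 %. The criterion for DMPs sets these shares above 80 % and below 20 %.

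The fragment of 69 bp in the middle of the block had the lowest βerko values. Its 7 positions on the minus strand averaged 89.7 % in wt MEFs and 6.24 % in βerko MEFs, with 25 wt reads and 105 to 106 βerko reads at the DMPs. Its 8 positions on the plus strand had 78.4 and 8.77 %, with 11 and 80 reads. Among these, position 30441080 stood apart with 36.25 % in βerko MEFs, while the other 7 were at 8.75 % or below. In the 107 bp fragment to its right, the plus strand had 97.7 and 15.6 %, with 35 to 36 wt reads and 72 to 73 βerko reads, the deepest in wt of the 8 sets with known depth. The minus strand of that fragment had 95 and 10.4 %, but on 5 wt reads. In the 71 bp fragment that holds most of the stretch of higher remaining methylation, the 5 plus-strand positions, none of them a DMP, had 95.04 and 49 %, and the 5 minus-strand positions had 98.2 and 28.2 %. The only DMP on that minus strand had 11 wt and 67 βerko reads, and no depth was given for the plus strand.

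Counting error is wide for the shallow sets and narrow for the deep ones. Position 30441156 was methylated in 36 of 36 wt reads (exact 95 % confidence interval 90.3 to 100 %) and in 9 of 73 βerko reads (5.80 to 22.1 %). Position 30441120 was methylated in 25 of 25 reads (86.3 to 100 %) and in 3 of 106 reads (0.588 to 8.05 %). Position 30441237 was methylated in 5 of 5 reads, for which the interval starts at 47.8 %, and in 3 of 58 reads (1.08 to 14.4 %). PCR copies cannot be told from separate molecules, so these intervals cover counting error only.

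The βerko library was deeper at every one of the 29 DMPs. Depth ran from 5 to 36 reads in wt with a median of 14, and from 31 to 106 reads in βerko MEFs with a median of 72. The ratio of βerko to wt reads had a median of 4.24 and ran from 2 to 11.6. At the 5787 hypomethylated DMPs of the series with more than 4 reads in both libraries the median ratio was 1.87, and at the 1960 such hypermethylated DMPs it was 0.909. Depth thus moved with the direction of the difference, and its part in the result was not tested. At the 23 DMPs with at least 10 reads in both libraries, 95.3 % of wt calls and 8.16 % of βerko calls were methylated. The criterion for DMPs holds such shares above 80 % and below 20 %, so they cannot show what part depth had.

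**Figure D3:**
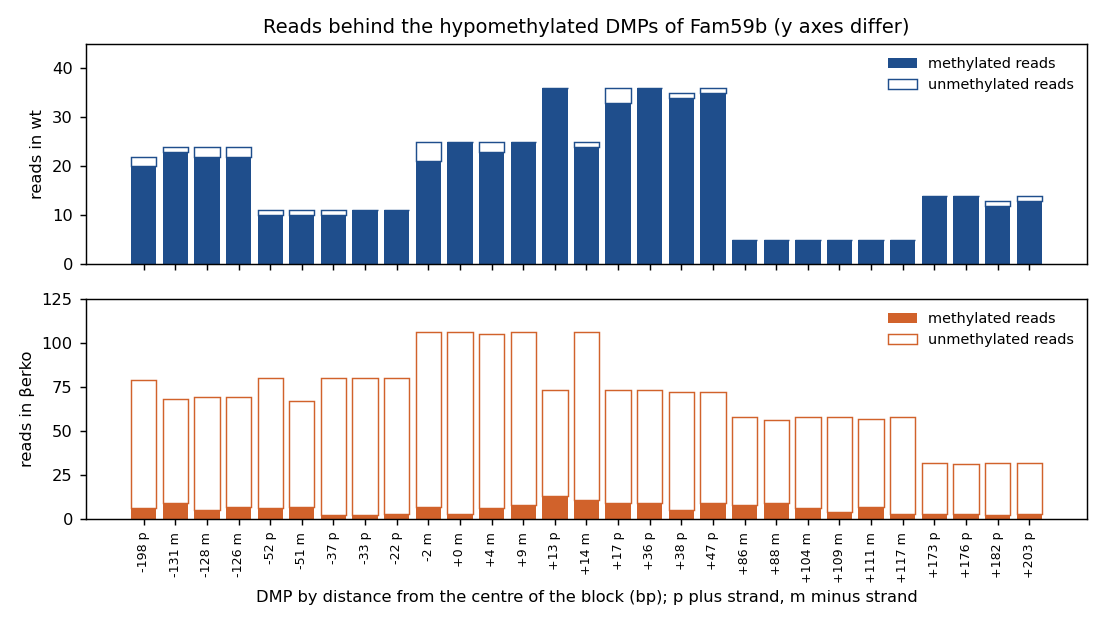
Reads (y axis) at each of the 29 hypomethylated DMPs in order along the exon (x axis, distance from the block's centre in bp), filled for methylated and open for unmethylated reads, with wt above and βerko below on different scales. Nearly all wt reads are methylated and nearly all βerko reads are not, and neighbouring DMPs of a strand share their depth.

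At CpGs covered on both strands the strands can be compared, since maintenance methylation usually keeps them alike. In the block there were 5 such CpGs, and at 4 of them the strands differed by 2.95 to 7.84 percentage points in βerko MEFs. At the CpG at 30441001, in the stretch of higher remaining methylation, the plus strand had 80 % and the minus strand 30.4 % in βerko MEFs, a gap of 49.6 percentage points, while both strands had 100 % in wt. A gap above 40 percentage points in βerko MEFs was found at 3.30 % of the 70667 CpGs covered on both strands in the series. The strands of that CpG belong to different fragments. The same holds for the CpGs at 30441068 and 30441133, whose strands differed by 2.95 and 7.43 percentage points in βerko MEFs. Over the block, the 26 plus-strand positions had 89.6 and 19.5 % and the 25 minus-strand positions 93.0 and 14.2 %.

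At most of its covered positions, the rest of Fam59b kept its methylation, or its lack of methylation. Of its 48 positions outside the block, however, 28 were below 20 % in wt MEFs and could not fall by 20 percentage points. Outside the block, 7 positions of the window were lower by at least 20 percentage points, and all 7 lay among the other positions of Fam59b. Any such position next to the block would have been counted in it by its rule. Only 91 of the 375 CpGs of the gene were covered, or 24.3 %. In exons 2 and 3 none was covered, so most of the gene was not seen. Around the start of the gene, from 30431490 to 30431937, all 30 covered positions upstream and in exon 1 were below 20 % in both cell types, with means of 2.36 % ± 4.70 in wt and 0.365 % ± 0.677 in βerko MEFs. The first part of intron 1, with 16 positions up to 30432685, had 16.8 % ± 21.2 in wt and 5.79 % ± 11.2 in βerko MEFs. There a short run of 4 minus-strand positions, 30432232 to 30432258, was partly methylated in wt, with 48.9, 33.3, 51.1 and 28.9 %. The same positions had 9.80, 11.8, 4.08 and 0 % in βerko MEFs, and all 4 were lower by more than 20 percentage points. Apart from the block, this was the only other run of more than 1 position in the window with that difference.

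Further into the gene, most of the covered CpGs on both sides of the block were methylated. In intron 2, the 5 positions from 30437112 to 30437132 had 77.1 % ± 31.0 in wt and 91.1 % ± 19.9 in βerko MEFs, and position 30437128 had 25 % in wt and 100 % in βerko MEFs, the only position of the window that was higher by at least 50 percentage points, against 1.47 % of all covered positions. After the block, exon 5 had 87.5 and 90.9 % at 2 positions and exon 6 had 98.0 and 96.3 % at 3 positions. Position 30442714 in intron 5, between them, had 89.7 % in wt and 36.7 % in βerko MEFs and was the only position outside the block that was lower by at least 50 percentage points. It was no DMP. Over the 48 positions of Fam59b outside the block, 28 of them below 20 % in wt, wt MEFs averaged 33.2 % and βerko MEFs 28.4 %.

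No such block was seen at the covered positions of the neighbouring genes, and Hadha starts beyond the window. The gene 3110082J24Rik, at chr5:30430388-30432624 on the minus strand, overlaps the start of Fam59b and shares its positions there, with means of 7.54 and 2.30 % at 45 positions. Hadha, on the minus strand from 30481702 to 30444841, codes for the alpha subunit of the mitochondrial trifunctional protein of fatty acid oxidation and overlaps the end of Fam59b. Its 8 covered positions in the window had 96.7 % ± 3.86 in wt and 96.4 % ± 6.84 in βerko MEFs. Beyond the window, the nearest hypomethylated DMP to the left was 1656039 bp away and the nearest to the right 166609 bp away. Of the 1154 positions covered outside the block and within 1000000 bp of it, 12 were hypomethylated DMPs, or 1.04 %, against 0.700 % of all covered positions. Of the same 1154 positions 0 were hypermethylated DMPs, against 0.237 %. They averaged 35.9 and 30.8 %, and 4.25 % of them were lower by at least 50 percentage points, against 2.92 % of all covered positions.

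The block is rich in CpGs for DNA that was methylated in wt MEFs. Its 408 bp up to the last G hold 62 CpGs, with 74.0 % G and C and an observed to expected CpG ratio of 1.11. The ratio was 0.955 over exon 4, 0.737 from 500 bp upstream of the start to the end of exon 1, and 0.372 over the gene. Sequences of the same length around covered CpGs held a median of 24 CpGs, and 4.73 % of them held 62 or more. Around CpGs above 80 % in wt MEFs the median was 10, and 0.271 % held 62 or more, against 8.87 % around CpGs below 20 % in wt. Outside the block, 669 CpGs were above 80 % in wt and stood in sequences with 62 or more CpGs. They averaged 94.3 and 59.9 %, and 32.4 % of them were lower by at least 50 percentage points. Among the 250448 CpGs above 80 % in wt in sequences with fewer CpGs, that share was 5.66 %. Neighbouring CpGs are not independent, and these shares are descriptions across sites.

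Sequence words were looked up in the block on either strand. The oestrogen response element, searched as GGTCA and its reverse complement with 2 bases between as in the methods of the study, had 0 matches, and 0.0709 % of sequences of the same length around covered CpGs held it. With 3 bases between, the usual consensus, it had 0 matches as well, and 0.0405 % held it. GGTCA alone had 1 match, and 49.0 % of such sequences held it. The Sp1 word GGGCGG, held by 49.98 %, and the AP2 word GCCNNNGGC, held by 35.4 %, had 0 matches. CCGG, the site of MspI, had 6 matches, and 99.95 % of sequences held it. A missing word says only that these letters are not in this window.

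Exon 4 was compared with other coding exons that are neither the first nor the last of their transcript. With at least 20 covered positions there were 362, and 11 of them, or 3.04 %, had a mean at least 50 percentage points lower in βerko MEFs. Exons with a wt mean below 50 % are in this share, though they could not differ by that much. Exon 4 of Fam59b, with 54 positions, 51 of them in the block, had 91.6 % in wt and 20.7 % in βerko MEFs. Its mean and its place among the exons thus largely restate the values by which the locus was chosen. Of its 127 CpGs 49 were covered, and its 3 positions outside the block averaged 84.85 % in βerko MEFs. Only 2 exons had a larger mean difference, one in Obsl1 with 89.96 and 4.27 % at 20 positions and one in Fbrsl1 with 92.0 and 17.9 % at 22 positions. Among the 134 such exons with a mean of at least 75 % in wt, 7 were lower by at least 50 percentage points, exon 4 of Fam59b among them. Of the same 134, 116 differed by less than 20 percentage points towards loss or were higher, and the median difference was -1.29 percentage points.

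**Figure D4:**
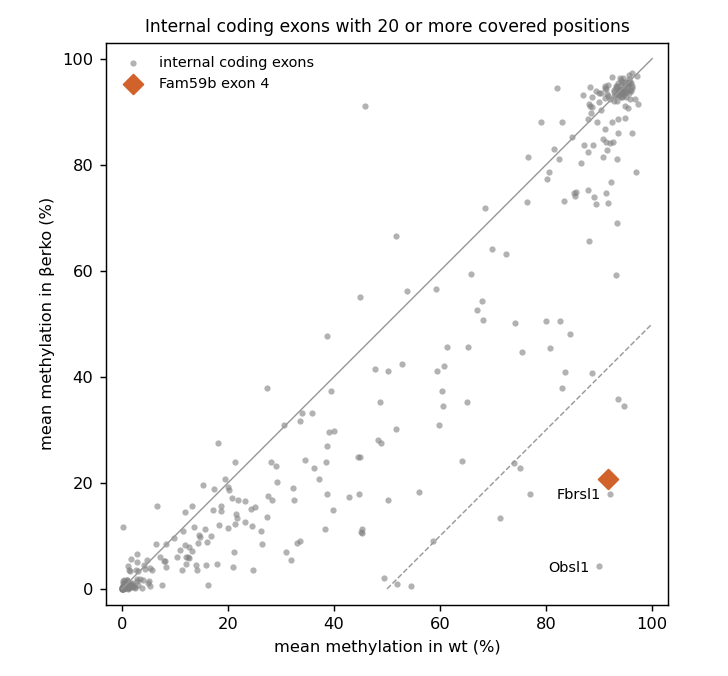
Mean methylation in wt MEFs (x axis, percent) against βerko MEFs (y axis, percent) for 362 internal coding exons with at least 20 covered positions, with equal values on the solid line and a loss of 50 percentage points on the dashed line. Exon 4 of Fam59b is the orange diamond at 91.6 and 20.7 %, far below the exons that are methylated in both cell types, and the 2 exons with a larger loss are named.

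Only 4 clusters, that in Fam59b among them, held at least 20 hypomethylated DMPs, each within 100 bp of the next. All the others are given here, in order of the distance of their mean values in both libraries from those of Fam59b. The criterion for DMPs holds all these means above 80 % in wt and below 20 % in βerko MEFs. Small distances are therefore largely set by it. The 29 DMPs of Fam59b had 96.1 % ± 4.51 in wt and 8.94 % ± 3.91 in βerko MEFs. The nearest was the cluster of 28 DMPs at Hoxa5 and Hoxa3 on chromosome 6, with 95.8 % ± 5.04 and 8.15 % ± 3.62, 0.835 percentage points away. It was followed by 20 DMPs at Nkx6-2 on chromosome 7, with 91.9 % ± 6.38 and 8.69 % ± 4.75, and by 35 DMPs in 4930548F15Rik on chromosome 13, with 95.6 % ± 6.21 and 0 %. In all 4 the βerko library was deeper, with median reads of 20.5 and 78 at Hoxa5, 8 and 35 at Nkx6-2, and 11 and 69 in 4930548F15Rik.

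Other genes of GRB2 and MAP kinase signalling were counted by their DMPs and mean methylation, and no runs were sought in them. The list held 21 genes, among them Grb2, its partners Sos1, Shc1 and Gab1, the receptors Egfr and Fgfr1, Ras and Raf genes, kinases downstream of them and the relative Fam59a, and all 21 had covered positions. Hypomethylated DMPs lay in 2 of them, or 9.52 %, against 9.73 % of all 16659 protein-coding genes with covered positions, and a hypermethylated DMP lay in 1, or 4.76 %, against 4.69 %. The genes of the list had a median of 43 covered positions, against 23 over all protein-coding genes. A gene with more positions has more chances to hold a DMP, so these shares are not at like coverage. The median over the list of the mean difference per gene was -0.219 percentage points, and it was -0.293 over all protein-coding genes. Fam59a, which codes for GAREM itself, had 1 hypomethylated DMP in an intron, with 90.5 % of 21 wt reads and 14.3 % of 14 βerko reads methylated, while its 62 positions had means of 43.8 and 41.1 %. Egfr, the receptor of epidermal growth factor, had 1 hypomethylated DMP on 5 reads in each library, with 100 and 0 %, and means of 19.4 and 6.83 % at 33 positions. Fgfr1, a receptor of fibroblast growth factors, had 1 hypermethylated DMP in an intron, with 18.3 % of 60 reads and 92.2 % of 51 reads. Grb2 had no DMP, with means of 17.9 and 17.8 % at 54 positions.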

How the data were processed

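Genomic DNA of wt and βerko MEFs was digested with MspI, fragments of 160 to 340 bp were cut from the gel after adapter ligation, and bisulfite-treated libraries were amplified with 19 PCR cycles. Reads were mapped by the authors on the Genomatix Mining Station, whose version is not given in the sources used here, to mm9. The submitters' processing notes name CASAVA 1.4. For cytosines seen in both libraries the authors deposited methylation as percent of reads, without depth, and, as counts, the reads per library for DMPs, annotated with RegionMiner. These tables list 6016 hypomethylated and 2055 hypermethylated positions, of which 229 and 95 had 4 reads in a library and were left out, since the stated criterion asks for more than 4.

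All 826937 positions were CpG cytosines of NCBIM37, so its sequence and GENCODE gene models were used with these coordinates. Gene symbols in use today were matched through a RefSeq table of assembly GRCm38.p6, from which no coordinates were taken. Methylated reads were the percent times the reads, within 0.0045 of a whole number at the 29 DMPs. Total reads per library and the depth of other positions were not analysed here. Some sequence and gene names are not reported here.

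No test was made between the groups, because there was 1 library per group and the locus was chosen by these values. The design fixed a run in which every covered position was lower by at least 50 percentage points, with gaps of at most 500 bp. The wider block, at 20 percentage points, was set as an alternative of it. Intervals are exact (Clopper-Pearson) at 95 %. Named were Fam59b, genes overlapping the window, listed signalling genes with a DMP, and the 3 clusters nearest in mean values. Those 3 were all the other clusters with at least 20 hypomethylated DMPs. Grb2, Obsl1, Fbrsl1 and single positions were named after their values were seen, and the density of CpGs and the internal exons were compared after the data had been seen. The locus and the gene list were chosen with earlier results of these data known. The run finder was tested on simulated data. The tools were pysam 0.24.0, pandas 2.3.3, NumPy 2.4.6, matplotlib 3.10.9 and SciPy 1.17.1 under Python 3.11.15.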

Additional observations from a re-analysis of the deposited data

How the results depend on the processing

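The 29 hypomethylated DMPs were 23 with at least 10 reads in both libraries, 14 with at least 20 reads, 16 with methylation above 90 % and below 10 %, and 27 when both strands were merged. The length of the changed run, 226 bp at a difference of 50 percentage points, was 407 bp at 20 percentage points or when 1 position in a row could miss the difference, and 74 bp at 80 percentage points, and it did not move with shorter or longer gaps or with merged strands. The mean difference of the run stayed between -87.4 and -74.4 percentage points over the alternatives, the whole block included, an alternative chosen after seeing the data. The alternatives that use DMPs alone are held to large differences by the criterion for DMPs. For Fam59b outside the run it was -24.5 percentage points, -8.49 as a median over positions and -4.76 outside the whole block. No paired analysis was possible because there is 1 library per group. Depth limits the minus strand of the 107 bp fragment, with 5 wt reads, and uncovered CpGs limit the end of the block.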
